A study of Macaca mulatta with 39 samples.

Results

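Embryonic stem cells (ESCs) of rhesus macaques were compared with fibroblasts grown from the skin of the animals whose gametes gave rise to the ESC lines. The comparison used 13 of the 39 arrays of the series, 5 of ESCs and 8 of skin fibroblasts, and averaged the arrays of each source. The ESC side held the male line C3106 (arrays b, c and d) and the female line C3806 (arrays a and b). The skin side held the cultures M032 and M088 (arrays a, b and c of each) and M106p1 (arrays b and e), all grown out of skin explants, and neither the sex of each animal nor its place in the pedigree of either line is given in the sources used here. An ESC line is grown from a single embryo, and line goes with sex, so the effects of line and sex cannot be told apart. The other 24 arrays of the series are of fibroblasts from teratomas of the lines, which are drawn on only where they show how skin differs. Neither the passage nor the culture medium of any source is given in the sources used here.

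ESCs are taken from the early embryo, divide without limit and can form every tissue of the body. Their state is held by a small set of transcription factors, with POU5F1 and SOX2 at the centre, together with an open chromatin and a short G1 phase of the cell cycle. Skin fibroblasts are mesenchymal cells of the dermis that secrete and remodel collagen-rich matrix, move by contractile fibres and, in culture, reach a limit to their divisions set by cell cycle inhibitors.

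The arrays left out of the comparison had profiles of other sources. The array labelled C3806c correlated best, over all genes, with a teratoma array (TC38a, r = 0.9977), and its mean correlation with the C3806 arrays was 0.8855. The array labelled M106p1f correlated best with a teratoma array (TD31b, r = 0.998), while a teratoma array labelled TB31c correlated best with M106p1b (r = 0.9986). With C3806c and M106p1f kept under their labels, 1012 genes were called higher in ESCs and 1078 lower, against 1385 and 1355 without them. The array C3806a stays in, with a gap of 3.89 log2 units between its actin control probe sets at the 3′ and 5′ ends (shortened transcripts widen this gap), against 0.26 to 0.76 in the other 4 ESC arrays and 0.05 to 0.59 in skin arrays. Without C3806a the counts were 1331 higher and 1349 lower.

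The values are log2 signals of probe sets, so that a difference of 1 is a doubling. They ran from 2.11 to 14.18 over all probe sets, and the median gene lay at 7.54 in ESCs and 7.56 in skin. A gene was called when its limma adjusted p was under 0.05 and its difference was at least 1 in size. Of 14132 genes 1385 were called higher in ESCs (9.8%) and 1355 lower (9.59%). The falls were the larger in size, with 149 genes at least 4 log2 units lower in ESCs and 66 at least 4 higher. In all called genes the means of the ESC lines lay outside the range of the skin cultures. The single arrays did not overlap either for 1345 of the genes called higher and 1296 of those called lower. Over all 14132 genes both ESC means lay above every skin mean in 4708 and below every skin mean in 3816. The call rule favours genes whose sources lie apart, so the separation of called genes is no further support for them. These are bulk RNA values, in which fewer cells of a type and less RNA per cell cannot be told apart.

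The given markers separated the cell types. SOX2, which with POU5F1 holds the pluripotent state, had log2 signals of 12.58, 12.54 and 12.49 in the C3106 arrays and 12.55 and 12.28 in the C3806 arrays, against 4.20, 4.46 and 4.62 (lowest, median and highest) in the skin arrays. It was higher in ESCs by 8.02 (SE 0.12, limma adjusted p = 3.12e-05), with no overlap between arrays. DNMT3B, a methyltransferase that sets new DNA methylation, lay at 12.40, 12.46, 12.02, 12.65 and 12.48 in ESC arrays (C3106 first), against 6.03, 6.23 and 6.69 in skin, a difference of 6.15 (SE 0.17, adjusted p = 7.5e-05). NT5E, the surface enzyme CD73 that marks mesenchymal stromal cells, lay at 3.38, 3.27, 3.46, 3.32 and 3.47 in ESC arrays, near the bottom of the scale, against 10.61, 11.09 and 11.29 in skin, a difference of −7.59 (SE 0.19, adjusted p = 5.23e-05). KLK8, a secreted protease of the kallikrein family, lay at 3.66, 3.63, 3.52, 3.76 and 3.49 in ESC arrays, against 11.09, 11.52 and 12.11 in skin (−8.02, SE 0.27, adjusted p = 0.000101). The other probe sets of KLK8 differed by 0.91 and 2.09, in the opposite direction, and those of NT5E by −0.93 and −2.45. Among the fibroblast markers, DCN, FBN1, LUM and FAP fell by 5.22 to 8.89, while THY1, often used to mark fibroblasts, had a mean of 10.24 in ESCs and 10.15 in skin, and COL3A1 a mean of 7.77 in ESCs and 8.27 in skin.

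**Figure D1:**
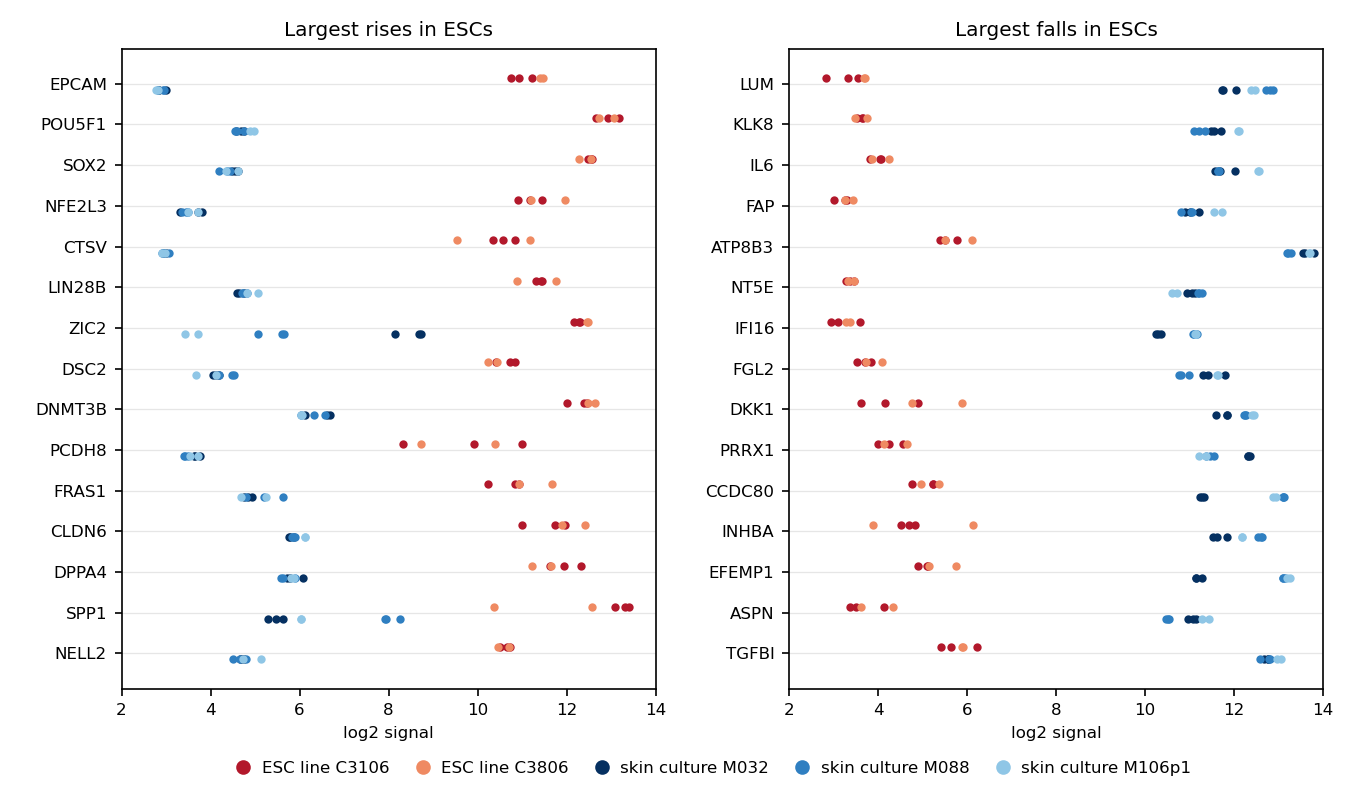
Log2 signal (x axis) in every array for the 15 genes that rose most and the 15 that fell most in ESCs; each point is an array, ESC arrays are drawn above the line in reds and skin arrays below it in blues. The 30 genes were taken among called genes whose source means do not overlap, so the gap between ESC and skin arrays follows largely from that choice. ZIC2 and SPP1 show the widest spread among skin cultures.

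The largest rises held further pluripotency and epithelial genes. EPCAM, an adhesion protein of epithelia, lay at 10.93, 11.22 and 10.75 in C3106 and 11.41 and 11.48 in C3806, against 2.78, 2.83 and 3.00 in skin, and its difference of 8.34 (SE 0.17, adjusted p = 3.4e-05) was the largest rise of all genes tested. POU5F1 lay at 12.67, 12.94, 13.17, 12.72 and 13.06 in ESC arrays, against 4.55, 4.72 and 4.98 in skin (8.16, SE 0.13, adjusted p = 3.12e-05). The next were NFE2L3, a stress-response transcription factor, at 7.83, CTSV, a lysosomal protease, at 7.51, DSC2, a desmosomal cadherin, at 6.36, PCDH8, a protocadherin, at 6.07, FRAS1, a basement membrane protein of embryonic epithelia, at 5.97, CLDN6, a tight-junction protein, at 5.93, and NELL2, a secreted ligand of neurons, at 5.84, with adjusted p of at most 0.000151. Another probe set of FRAS1 differed by 0.37 only. SPP1, the secreted phosphoprotein osteopontin, averaged 12.37 ± 1.28 in ESCs (SD, n = 2 lines) and 6.51 ± 1.35 in skin (n = 3 cultures), a difference of 5.86 (SE 0.92, adjusted p = 0.00727). Its ESC arrays were uneven, with 10.37 in C3806b and 12.57 to 13.40 in the others.

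Core pluripotency factors were mostly higher in ESCs, with NANOG the exception among the called genes. Of 15 measured core factors 8 were higher in ESCs and 1 lower, with a median difference of 1.99, against 0.03 over all genes. Beside POU5F1 and SOX2 the rises were LIN28B, which blocks maturation of let-7 microRNAs, at 6.58, DPPA4, a nuclear protein found in pluripotent cells, at 5.90, PRDM14, a repressor that guards pluripotency, at 4.99, SALL4, a zinc-finger factor of early embryos and germ cells, at 3.61, ZSCAN10 at 2.42 and ZFP42 at 1.99. The member that fell was NANOG, a homeodomain factor of the same circuit. It lay at 8.22, 8.60 and 8.42 in C3106 and 8.28 and 8.59 in C3806, against 9.24, 9.69 and 10 in skin, so every skin array was above every ESC array (−1.21, SE 0.15, adjusted p = 0.0035). NANOG has a single probe set here, and in humans it has processed copies elsewhere in the genome, so which transcript was measured is not known. DPPA5 and UTF1, which mark ESCs in mouse and human, lay at 5.45 and 7.95 in ESCs, against 5.29 and 7.30 in skin, and were not called.

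Primate ESCs are usually held in a primed state, like that of the epiblast after implantation, which uses other genes than the naive state before implantation. Of 13 primed-state genes 7 were higher in ESCs and 2 lower (median 2.17), shares of 53.8% and 15.4%. Of 10 naive-state genes 1 was higher and 4 lower (median −0.43), shares of 10% and 40%. Over all genes 9.8% were called higher and 9.59% lower, so the naive share called higher lies near that over all genes. Among the primed genes ZIC2, a zinc-finger factor of the epiblast and neural plate, rose by 6.52, SOX11 by 5.05, SALL2 by 4.08 and SOX3 by 2.90. ZIC2 lay at 12.16 to 12.49 in ESC arrays, while skin arrays ran from 3.42 to 8.73 with a mean of 8.52 in culture M032, so its error was wide (SE 1.41, adjusted p = 0.0203). FGF5, a growth factor used as a primed marker, ran against its list: it lay at 4.53, 4.70, 4.76, 4.46 and 4.84 in ESC arrays, against 7.97, 8.53 and 10.89 in skin (−4.54, SE 0.84, adjusted p = 0.0122). SFRP2, a secreted inhibitor of WNT, also fell (−3.46). Of the naive genes PRDM14, also counted among the core factors above, was the one that rose. The falls were TBX3 at −4.14 and the Krüppel-like factors KLF4 at −2.73, KLF5 at −2.51 and KLF2 at −1.35, which fibroblasts and other adult cells also express. KLF4 lay at 7.89, 7.80, 6.66, 6.54 and 7.82 in ESC arrays, against 9.59, 10.19 and 10.57 in skin (SE 0.24, adjusted p = 0.00132). Of 11 targets of let-7 and oncofetal RNA-binding proteins 7 were higher and none lower (median 1.75), among them IGF2BP3 at 4.76 (SE 1.26, adjusted p = 0.0375), MYCL at 3.13, ARID3B at 3.05 and HMGA1, an architectural chromatin protein, at 2.18. IGF2BP3 varied among skin cultures, with means of 9.34 in M032, 5.43 in M088 and 9.23 in M106p1.

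**Figure D2:**
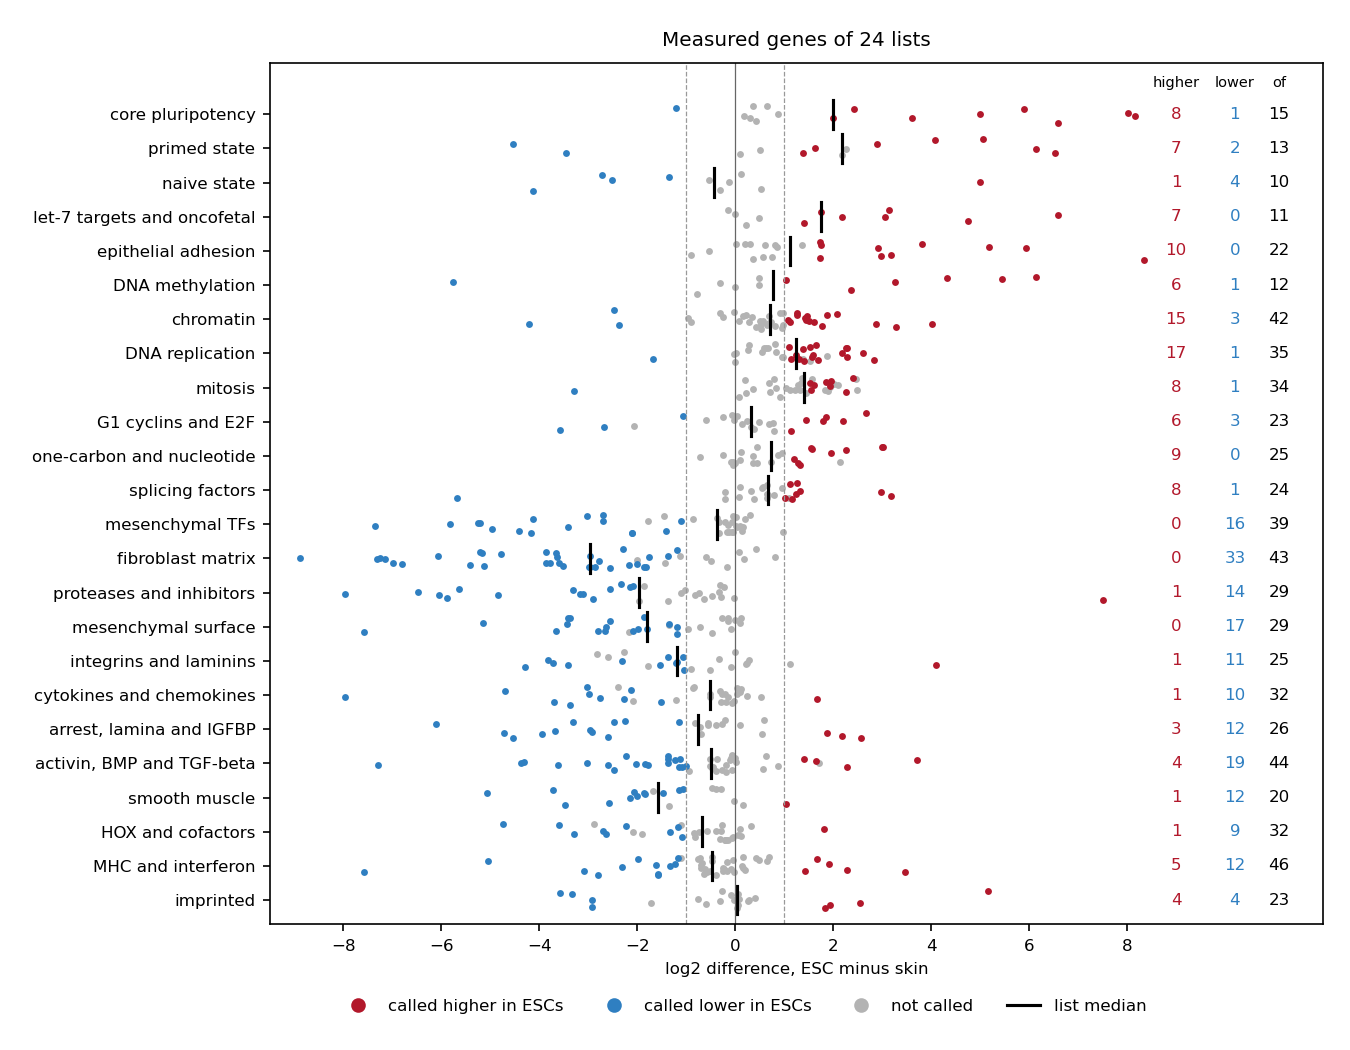
Log2 difference, ESC minus skin (x axis), of every measured gene of 24 lists (y axis); points are genes, black bars list medians, dashed lines the fold limit of 1, and the numbers at the right give the genes called higher, called lower and measured. The 43 fibroblast matrix genes hold 33 called lower and none called higher, while the 35 DNA replication genes hold 17 called higher and 1 lower.

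**Figure D3:**
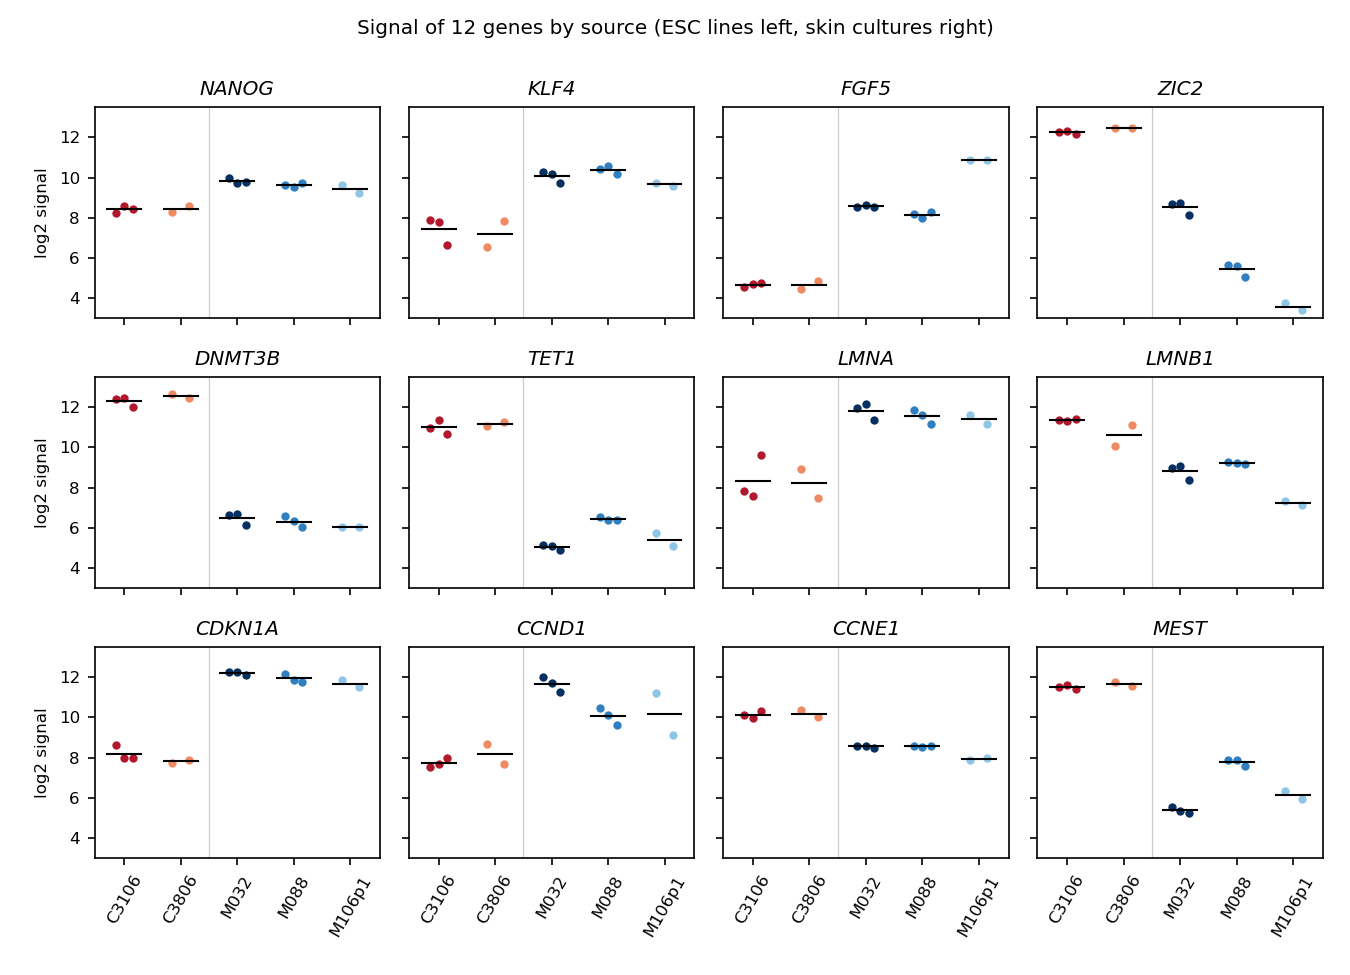
Log2 signal (y axis) of 12 genes in the arrays of each source (x axis; ESC lines left, skin cultures right), with a bar at the mean of the source. NANOG, KLF4, FGF5, LMNA, CDKN1A and CCND1 are lower in every ESC array, and ZIC2, LMNB1 and MEST spread widely among skin cultures.

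Epithelial junction genes rose in ESCs without CDH1. Of 22 measured genes 10 were higher and none lower, with a median of 1.11. After EPCAM and CLDN6 came DSP, the plaque protein desmoplakin, at 5.18, the claudin CLDN10 at 3.81, ESRP2, a splicing factor of epithelia, at 3.18, and KRT19, a keratin of simple epithelia, at 2.97. DSP lay at 10.60, 11.06, 10.47, 11.00 and 10.91 in ESC arrays, against 4.88, 5.87 and 6.36 in skin (SE 0.37, adjusted p = 0.000719). CDH1, the epithelial cadherin, had means of 5.66 in ESCs and 5.64 in skin on its only probe set, a difference of 0.02 (SE 0.11, adjusted p = 0.898). Among 20 other cadherins 4 were higher and 6 lower: beside PCDH8, CDH10 rose by 4.51 and CDH3, the placental cadherin, by 2.20, while CDH13 fell by 4.86, PCDH20 by 4.08, CDH11, a cadherin of mesenchyme and bone, by 3.99 and FAT4 by 3.72. CDH11 was uneven in ESC arrays, at 8.40, 7.38, 9.88, 7.06 and 8.24, against 11.61, 12.24 and 12.48 in skin.

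Both makers and removers of DNA methylation were higher in ESCs. Of 12 measured genes of this group 6 rose and 1 fell, and without either ESC line 4 rose. DNMT3A, the partner of DNMT3B, lay at 10.79, 10.97, 11.36, 11.85 and 11.14 in ESC arrays, against 6.57, 7.0 and 7.29 in skin (4.33, SE 0.21, adjusted p = 0.000271). TET1, which oxidises methylcytosine, lay at 10.97, 11.36, 10.69, 11.09 and 11.27, against 4.92, 5.43 and 6.56 in skin (5.45, SE 0.42, adjusted p = 0.000892), and its relative TET3 rose by 2.37. HELLS, a remodeller that gives methyltransferases access to chromatin, rose by 3.26, with adjusted p = 0.0189. MBD2, which reads methylated DNA, fell by 5.76 on its brightest probe set, but its other probe sets gave −3.71 and 3.79, so its direction depends on the probe set.

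Of 42 chromatin regulators 15 were higher and 3 lower (median 0.71). CHD7, a remodeller of neural crest and ESC enhancers, rose by 4.02, JARID2, a partner of the Polycomb complex PRC2, by 3.29, HMGB3 by 2.88, and the histone demethylases KDM2B by 1.88 and KDM1A by 1.61. JARID2 lay at 11.93 to 12.18 in ESC arrays and 8.19 to 9.05 in skin. The core ATPase of one form of the BAF remodelling complex, SMARCA2, fell by 2.38, its subunit SMARCD3 by 2.48 and the histone deacetylase HDAC9 by 4.21, while the subunits SMARCC1 and SMARCD1 each rose by 1.26.

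The nuclear lamina differed in make-up. LMNB1, the B-type lamin of dividing cells, lay at 11.38, 11.30, 11.43, 10.07 and 11.13 in ESC arrays, against 7.14, 9.02 and 9.28 in skin (2.56, SE 0.63, adjusted p = 0.031). LBR, the lamin B receptor that ties heterochromatin to the envelope, rose by 2.18. LMNA, the A-type lamin of stiff differentiated nuclei, lay at 7.85, 7.60, 9.61, 8.95 and 7.48 in ESC arrays, against 11.16, 11.64 and 12.17 in skin (−3.31, SE 0.16, adjusted p = 0.000271). Arrays of the cell types did not overlap for any of the lamina genes named here.

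Many DNA replication genes rose, while called G1 regulators went both ways. Of the G1 genes 26.1% were called higher and 13% lower, against 9.8% and 9.59% over all genes, so the falls lie near that share. Of 35 replication genes 17 were higher in ESCs (48.6%) and 1 lower (2.86%), with a median of 1.24. They held MCM3 at 2.84 and MCM2 at 2.60, subunits of the replicative helicase, CHAF1A, which lays histones on new DNA, at 2.29, MCM10 at 2.29 and GINS2 at 2.26, which fire the helicase, and GMNN, which limits replication to 1 round per cycle, at 2.17. The fall was CLSPN, a checkpoint adaptor, at −1.68, and another of its probe sets lay at 0.13. Of 23 G1 genes 6 rose and 3 fell; without C3106 4 rose and 2 fell, and without C3806 3 rose and 1 fell. CCNE1, the cyclin that drives entry into S phase, lay at 10.13, 9.96, 10.34, 10.35 and 10.02 in ESC arrays, against 7.90, 8.57 and 8.60 in skin (1.80, SE 0.23, adjusted p = 0.00376). CCND1 and CCND3, D-type cyclins that respond to growth factors, fell by 2.68 (SE 0.52, adjusted p = 0.0144) and 3.58 (SE 0.39, adjusted p = 0.00252). CCND1 lay at 7.55, 7.66, 8.00, 8.67 and 7.67 in ESC arrays, against 9.12, 10.84 and 12 in skin. E2F5 rose by 2.66 and its partner TFDP2 by 2.19.

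Inhibitors of the cell cycle and secreted binders of insulin-like growth factors were lower in ESCs. In the list that holds them 46.2% were called lower and 11.5% higher, against 9.59% and 9.8% over all genes. Of 26 genes of arrest, lamina and growth factor binding 12 were lower and 3 higher, the 3 being LMNB1, LBR and GADD45G (1.88), and without either ESC line 1 was higher. CDKN1A, the p53 target p21, lay at 8.62, 7.96, 7.97, 7.73 and 7.90 in ESC arrays, against 11.51, 12 and 12.28 in skin (−3.95, SE 0.20, adjusted p = 0.000317). CDKN2A, which encodes p16 and ARF, lay at 3.68 to 4.75 in ESC arrays and 8.42 to 9.10 in skin (−4.54, SE 0.18, adjusted p = 0.000174), while another probe set differed by −0.03. CDKN2C, which encodes p18, fell by 2.59. IGFBP7 fell by 6.12, IGFBP3 by 4.72 and IGFBP5 by 3.68.

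Mitosis genes rose less clearly, and here the skin cultures were unlike each other. Of 34 genes 8 were higher and 1 lower (BUB3, a checkpoint protein, −3.29), and the median difference was 1.41. In 28 of the 34 every skin mean lay below both ESC means, against 4708 of 14132 over all genes. The rises held KIF2C, a kinesin that frees wrongly attached microtubules, at 2.41, CENPF, a kinetochore protein, at 2.26, MYBL2, a transcription factor of the G2 phase, at 1.95, and CDC25A, a phosphatase that activates cyclin-dependent kinases, at 1.93. Culture M106p1 had the lowest mean of the 3 skin cultures for 30 of the 34 genes. No such count was made over all genes, here or for the replication list below. The list's median level was 9.62 in C3106 and 9.60 in C3806, against 8.56 in M032, 8.73 in M088 and 7.43 in M106p1. In the F test among skin cultures 21 of the 34 genes differed, against 8.2% of all genes, and M106p1 was the lowest in all 21. TOP2A, which untangles replicated DNA, had means of 11.54 in C3106 and 11.68 in C3806, against 9.88 in M032, 10.01 in M088 and 7.47 in M106p1, and was not called in ESC minus skin (2.49, adjusted p = 0.0687); it was chosen for naming after its values were seen. Without M106p1 15 mitosis genes were called higher, without M088 likewise 15, and without C3106 5. With each array entered and the source as a random block 22 were, and with all 13 sources of the series in the fit 23 were. The replication list showed the same order, with medians of 9.88 in C3106 and 9.83 in C3806, against 8.62 in M032, 8.70 in M088 and 7.66 in M106p1, and M106p1 was the lowest skin culture for 32 of 35 genes. Its count without M106p1 stayed within 1.5 times of 17, while without ESC line C3106 it was 4 and without C3806 it was 7. The growth state of the cultures was not recorded in the sources used here, and its part in these differences was not tested.

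**Figure D4:**
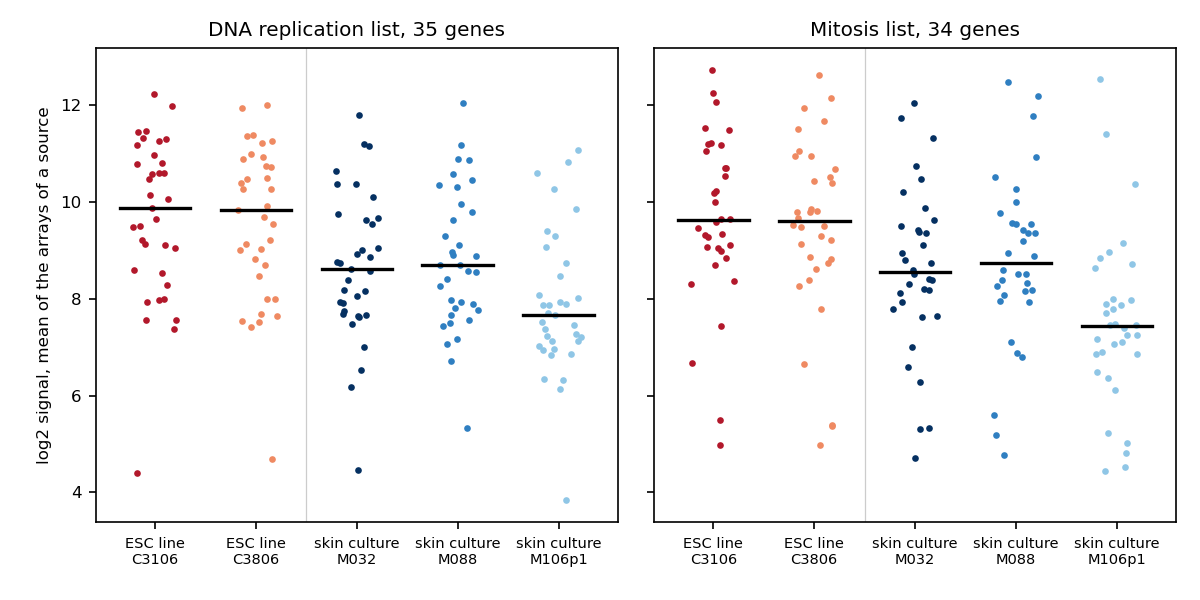
Log2 signal (y axis) of the 35 DNA replication and 34 mitosis genes in each source (x axis; ESC lines left, skin cultures right); points are genes, bars the list medians. Both lists are highest in the ESC lines and lowest in skin culture M106p1, with mitosis medians of 9.62 and 9.60 in the ESC lines and 8.56, 8.73 and 7.43 in M032, M088 and M106p1.

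Metabolic genes were described by 3 lists, beside shares of 9.8% higher and 9.59% lower over all genes. Of 25 genes of one-carbon metabolism and nucleotide synthesis 9 were higher and none lower (median 0.73), and 6 were higher without C3806. PFAS and PPAT, enzymes of purine synthesis, rose by 3.01 and 3.00, SHMT1, which moves one-carbon units from serine, by 2.27 and AMT, of the glycine cleavage system, by 1.96. PFAS lay at 9.03 to 9.55 in ESC arrays and 6.0 to 6.72 in skin. Of 24 amino acid transporters and related genes 4 rose (6 without M032) and 1 fell: SLC7A3, a carrier of arginine and lysine, rose by 5.12 and SLC6A15 by 3.54, while SLC1A4 fell by 3.32. Of 23 glycolysis genes 4 rose and 3 fell, shares of 17.4% and 13%. The glucose carriers SLC2A1 and SLC2A3 rose by 2.09 and 1.82, while PFKFB3, PFKP and ENO2 fell by 2.12, 1.73 and 1.45, and without array C3806a 2 of the list rose, without C3106 1. GPI, an enzyme early in glycolysis, had means of 9.77 in ESCs and 11.95 in skin on its brightest probe set but was not called (adjusted p = 0.0625). The other probe sets of GPI differed by −0.01 (means of 11.28 in ESCs and 11.29 in skin) and −0.66, so none showed a fall of that size. Of 24 splicing and RNA-processing factors 8 rose and 1 fell, and without either ESC line 5 rose. PTBP2, a splicing repressor of early neurons, rose by 2.97, and MBNL2, which promotes adult splice forms, lay at 5.52 to 5.83 in ESC arrays, against 11.17 to 11.61 in skin (−5.69, SE 0.15, adjusted p = 5.92e-05).

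Fibroblast matrix genes had the largest share of falls among the 43 lists. Of 43 measured fibroblast matrix genes 33 were lower in ESCs and none higher, with a median of −2.96. LUM, a collagen-binding proteoglycan, lay at 3.33, 3.54, 2.83, 3.71 and 3.68 in ESC arrays, against 11.73, 12.43 and 12.87 in skin, and its difference of −8.89 (SE 0.31, adjusted p = 0.000118) was the largest fall of all genes tested. CCDC80 fell by 7.31, the fibulin EFEMP1 by 7.26, the proteoglycan ASPN by 7.15, TGFBI by 6.99 and DCN by 6.81. The chains of type I collagen fell less. COL1A2 lay at 10.34, 9.79, 9.07, 10.30 and 9.27 in ESC arrays, above the median gene, against 13.48, 13.61 and 13.80 in skin (−3.87, SE 0.10, adjusted p = 5.92e-05), and COL1A1 ranged from 6.82 to 9.79 in ESC arrays and from 11.22 to 12.96 in skin (−3.64, SE 0.42, adjusted p = 0.00294). The lysyl oxidase LOX, which crosslinks collagen, fell by 5.41, and COL5A2, which sets fibril width, by 4.78. However, the other probe set of COL1A1 differed by −0.03, and those of COL5A2 by 0.75, −4.81 and 0.37.

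Proteases, surface proteins and adhesion receptors of mesenchyme fell with them. Of 29 proteases and their inhibitors 14 fell and 1, CTSV, rose. FAP, a surface protease of activated fibroblasts, lay at 3.00 to 3.43 in ESC arrays and 10.80 to 11.74 in skin (−7.96, SE 0.24, adjusted p = 8.03e-05). SERPINB2, which inhibits plasminogen activators, fell by 6.48, ADAM12 by 6.05, ADAMTS1 by 5.89 and ADAMTS2, which trims procollagen, by 5.65. Of 9 measured kallikreins KLK8 alone was called. Of 29 mesenchymal surface genes 17 fell and none rose, and 11 fell without C3106 and 10 without C3806. After NT5E came TNFRSF11B, the decoy receptor osteoprotegerin, at −5.16, PROCR at −3.66, F2RL2 at −3.43, the collagen receptor chain ITGA11 at −3.42 and MET, the receptor of hepatocyte growth factor, at −3.37. Of 25 integrins and laminins 11 fell and 1 rose, and without either ESC line 5 fell, without M106p1 7. The falls held the collagen receptor chain ITGA2 at −4.30 and LAMA4 at −3.83. The rise was LAMA1, a laminin chain of the early embryo's basement membranes, which lay at 8.44, 8.16, 7.94, 8.87 and 8.39 in ESC arrays, against 4.04, 4.24 and 4.57 in skin (4.10, SE 0.19, adjusted p = 0.000228).

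Of 39 mesenchymal and limb transcription factors 16 fell and none rose, while the median was −0.38. PRRX1, a homeodomain factor of limb and skin mesenchyme, lay at 4.0, 4.24, 4.56, 4.14 and 4.65 in ESC arrays, against 11.22, 11.50 and 12.37 in skin (−7.36, SE 0.33, adjusted p = 0.000217). SHOX2, a limb factor, fell by 5.83, ZEB2, a repressor of epithelial genes, by 5.25, RUNX2, the master factor of bone, by 5.22, EMX2 by 4.97 and EBF1 by 4.42. The other probe sets of RUNX2 differed by −0.07, 0.37, 0.10 and −0.48, so none showed a fall of that size. TWIST1, which drives mesenchymal change, had means of 9.10 in ESCs and 9.32 in skin and was not called (adjusted p = 0.626), nor was SNAI1, with means of 6.63 in ESCs and 7.49 in skin (adjusted p = 0.0401, under the fold limit); both were chosen for naming after their values were seen. Of 20 smooth muscle and contractile genes 12 fell and 1 rose, led by SYNPO2 at −5.06, the integrin chain ITGA8 at −3.73 and LMOD1 at −3.48. TAGLN, an actin-binding protein of contractile cells, stayed high in ESCs, at 12.35 to 12.49, against 13.43 to 13.71 in skin (−1.14, SE 0.11, adjusted p = 0.0017; chosen after its values were seen).

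Of 32 cytokines and chemokines 10 fell and 1, CCL20, rose (1.67, adjusted p = 0.0312); CCL20 was not called without array C3806a or C3106d, nor without either ESC line or M088. IL6, an inflammatory cytokine that aging fibroblasts secrete, lay at 4.06, 4.04, 3.83, 3.86 and 4.24 in ESC arrays, against 11.57, 11.67 and 12.57 in skin (−7.97, SE 0.30, adjusted p = 0.000138). PTX3, a soluble pattern receptor, fell by 4.70, the chemokine CCL2 by 3.71 and LIF, a cytokine that sustains mouse ESCs, by 2.98. In this list 31.2% fell and 3.12% rose, against 9.59% and 9.8% over all genes. Of 46 genes of antigen presentation and interferon response 12 fell and 5 rose, shares of 26.1% and 10.9%. The share that rose lies near the 9.8% over all genes. IFI16, a sensor of DNA in the nucleus, lay at 2.94 to 3.60 in ESC arrays and 10.25 to 11.17 in skin (−7.58, SE 0.29, adjusted p = 0.000145). GBP1 fell by 5.05, STING1, the adaptor that signals from cytosolic DNA, by 3.08, IFI35 by 2.81 and TAPBP, which loads peptides on MHC class I, by 2.31. IFITM1, which blocks virus entry and is known to be high in stem cells, ran the other way, at 13.40, 13.33, 13.31, 13.36 and 13.24 in ESC arrays, against 9.42, 9.93 and 10.28 in skin (3.46, SE 0.21, adjusted p = 0.000465). GBP2 rose by 2.29, but another of its probe sets lay at −0.76. Without C3106 5 genes of this list fell, and likewise without C3806.

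Signalling genes were described by pathway, and over all genes 9.8% were called higher and 9.59% lower. Of 44 genes of the activin, BMP and TGF-beta pathways 19 fell and 4 rose. INHBA, the subunit of activin A, lay at 4.84, 4.52, 4.69, 6.13 and 3.89 in ESC arrays, against 11.53, 12.18 and 12.62 in skin (−7.30, SE 0.29, adjusted p = 0.000174). BMPER, a modulator of BMPs, fell by 4.38, the latent TGF-beta binding protein LTBP2 by 4.32, GDF6 by 3.62 and the target gene ID3 by 2.23. The rises were BAMBI, a decoy receptor, at 3.71, ACVR2B, an activin and nodal receptor, at 2.28, BMP4 at 1.64 and NODAL at 1.40; without C3806 1 of the list rose. Of 51 WNT genes 6 rose (4 without C3106) and 8 fell, shares of 11.8% and 15.7%. DKK1, a secreted WNT inhibitor, lay at 4.16, 4.90, 3.62, 4.76 and 5.88 in ESC arrays, against 11.60, 12.24 and 12.44 in skin (−7.37, SE 0.37, adjusted p = 0.000307). DKK3 fell by 5.49 and the receptor FZD1 by 4.28, while FZD3 rose by 2.38 and the secreted inhibitor WIF1 by 4.37. LGR5, a receptor for R-spondins and a marker of epithelial stem cells, was high in skin, at 11.52, 11.83 and 12.02. In ESC arrays LGR5 lay at 4.26, 5.93, 4.07 and 4.63 in C3106b, C3106c, C3106d and C3806a, and at 9.60 in C3806b (−5.83, SE 0.68, adjusted p = 0.00302). Of 33 FGF genes 4 rose and 3 fell (6 without M088, 1 without C3806, 2 without C3106 or M106p1), among them the receptor FGFR2 at 3.01 and the target ETV4 at 2.18. The FGF shares of 12.1% and 9.09% lie near those over all genes. Other probe sets of FGFR2 differed by −0.01 to 1.78.

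Position and parent-of-origin genes were also compared. Of 32 HOX genes and cofactors 9 fell and 1 rose. HOXC6 lay at 6.84, 6.65, 6.24, 6.41 and 6.71 in ESC arrays, against 11.00, 11.35 and 11.57 in skin (−4.74, SE 0.15, limma adjusted p = 0.000101). Its other probe sets differed by 0.2, −1.54 and −1.35. The cofactors MEIS2 and MEIS1 fell by 3.59 and 3.29, HOXB6 fell by 2.71 and HOXB7 fell by 2.63, and PBX3 rose by 1.81. Of 23 imprinted genes 4 rose and 4 fell, each 17.4%, against 9.8% and 9.59% over all genes. MEST, expressed from the paternal copy, lay at 11.51, 11.62, 11.39, 11.74 and 11.58 in ESC arrays, against 5.22, 6.14 and 7.90 in skin (5.15, SE 0.70, adjusted p = 0.00467). MAGEL2 rose by 2.55, SNRPN by 1.94 and DLK1 by 1.83, while ATP10A, PLAGL1, DIRAS3 and SGCE fell by 2.93 to 3.58. H19, expressed from the maternal copy, had means of 8.29 in C3106 and 8.49 in C3806, against 7.50 in M032, 10.92 in M088 and 11.91 in M106p1, and was not called (adjusted p = 0.384); it was chosen for naming after its values were seen.

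Markers of other cell types were examined by list. These lists are small, and over all genes 9.8% were called higher and 9.59% lower, so 1 call in a list of 9 or 10 genes lies near that share. The largest shares were 33.3% higher for adipocyte markers, 27.3% higher for neural markers and 21.4% lower for trophoblast markers, each of a few genes. None of 13 early mesoderm, 10 macrophage and leukocyte and 11 endothelium genes was called, and in limma TBXT had means of 7.0 in ESCs and 6.83 in skin, PTPRC 5.95 in ESCs and 6.0 in skin, and CDH5 6.08 in ESCs and 6.0 in skin. Of 10 keratinocyte genes 1 (DSC3, 1.02, not called without C3106) and of 9 melanocyte genes 1 (MLANA, 1.44) were higher in ESCs, and none was lower. Endoderm markers held 2 of 14 higher (FOXA3 at 2.71, APOA1 at 1.02) and 1 lower (GATA6 at −3.61). Without C3806a 1 endoderm marker was higher and none lower, and without C3106 6 were higher and none lower. GATA6 had means of 5.10 in C3106 and 7.56 in C3806, against 9.24 to 10.47 in the skin cultures. Of the trophoblast markers 3 of 14 were lower (ITGA2, KRT7 at −4.0 and PGF at −1.52; 2 of 14 without C3806) and none higher, and the list's median level lay at 6.26 to 6.36 in the ESC lines and 6.5 to 7.93 in the skin cultures. Of 6 adipocyte markers 2 were higher in ESCs (FABP4 at 2.34 and ADIPOQ at 1.13) and none lower, with 1 higher without C3806 or M106p1 and 3 without M088 or C3106d. Of 6 Schwann cell markers 1 was lower (PMP22 at −4.83, while its other probe sets differed by 1.99 and 1.06), and of 12 cartilage and bone markers SPP1 was higher and RUNX2 and COL11A1 (−2.53) were lower; COL11A1 lost its call without either ESC line, M088 or M106p1. Of 22 neural markers 6 rose (4 without C3806) and 2 fell, among them CHGB, a protein of secretory granules, at 5.72 beside NELL2 and SOX11, while STMN2 fell by 2.73 and TUBB3 by 1.21. The list's median level lay at 6.40 to 6.56 in the ESC lines and 5.76 to 5.96 in the skin cultures. Of 23 germline genes KIT alone was called (3.13), and DAZL had means of 4.20 in ESCs and 3.94 in skin. Of 20 skeletal muscle markers 2 rose, ACTC1 by 3.93 and TNNC2 by 2.48, and MYH2 fell by 5.82, with MYOD1 at 5.24 in ESCs and 5.42 in skin. The part of admixed cells in any of these differences was not tested.

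The study's title places pluripotency genes on the counterparts of human chromosomes 16, 17, 19 and X, which in rhesus are 20, 16, 19 and X. Of the genes with a known chromosome 9.86% were higher in ESCs and 9.58% lower. The share called higher was 8.26% of 593 genes on rhesus 20, 7.34% of 804 on 16, 10.5% of 887 on 19 and 14.2% of 590 on X. The corresponding shares called lower were 6.24%, 7.34%, 6.54% and 8.81%. Rhesus chromosome 17 had the highest share called higher, with 38 of 234 genes or 16.2%. These shares are a description of this comparison, and no test of position was made. On X the largest rises were LOC696048 at 5.73, ITM2A, a membrane protein of cartilage and muscle precursors, at 5.36, and the zinc-finger gene ZNF711 at 5.18. On chromosome 20 CLDN6 was followed by PRKCB, a protein kinase C, at 4.84 and the zinc-finger gene ZNF423 at 4.70. On chromosome 16 they were RDM1 at 3.60, RFLNB at 3.14 and PFAS, and on 19 LOC717047 at 4.15, LOC693803 at 4.10 and NTN5, a netrin-like gene, at 3.45.

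**Figure D5:**
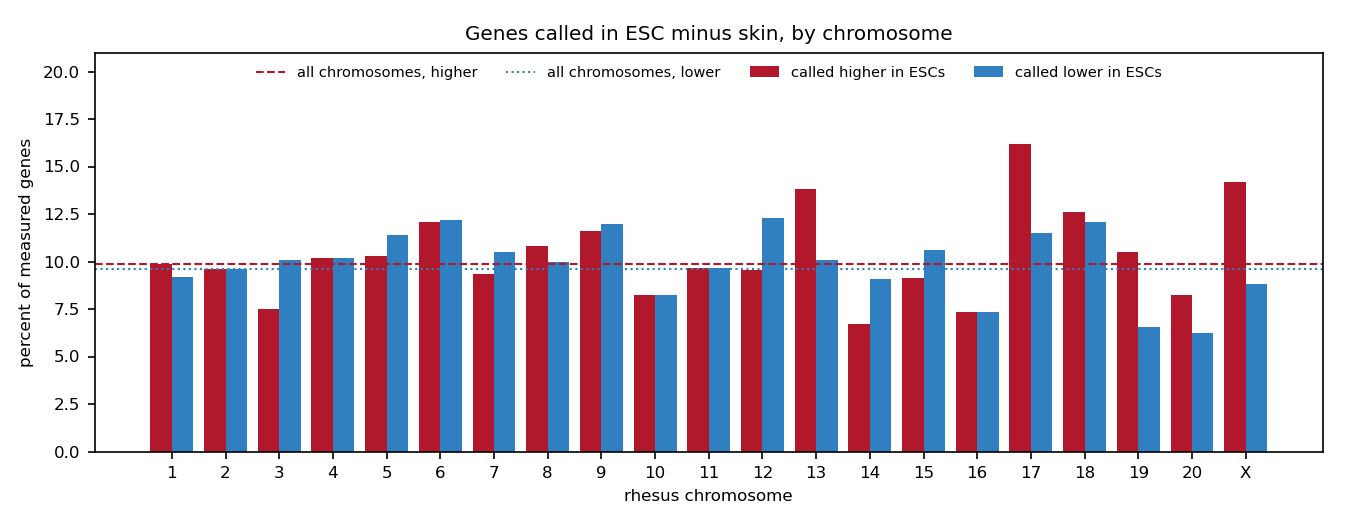
Percent of measured genes called higher (red) and lower (blue) in ESCs (y axis) by rhesus chromosome (x axis), with lines at the shares over all chromosomes. Chromosomes 17, X and 13 have the highest bars for genes called higher, at 16.2%, 14.2% and 13.8%.

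Few genes were called between the ESC lines. On single arrays, which measure the spread within a source only, 7 genes were higher in C3106 than in C3806 (0.0495%) and 2 lower (0.0142%). ITGB1, the integrin beta 1 chain, lay at 10.33, 10.82 and 10.65 in C3106, against 7.66 and 9.03 in C3806, with a skin mean of 11.74 (2.26, SE 0.34, adjusted p = 0.027). TAGLN2 was higher in C3106 by 1.35, LOC717595 by 1.29, PDAP1 by 1.20, INSIG2, a sensor of sterols, by 1.09, KCTD8 by 1.07 and BRIP1, a DNA repair helicase, by 1.06. RAB25, a trafficking protein of epithelia, lay at 6.77, 7.53 and 6.74 in C3106, against 8.51 and 8.26 in C3806 (−1.37, SE 0.22, adjusted p = 0.03). NODAL, a ligand of pluripotency and early patterning, lay at 7.28, 7.09 and 6.76 in C3106, against 8.39 and 8.01 in C3806 (−1.16, SE 0.15, adjusted p = 0.027). The count moved with every array left out, to 67 genes higher and 68 lower without C3806a, 220 and 104 without C3806b, 89 and 44 without C3106c, 23 and 5 without C3106d, and 1 and 2 without C3106b. Only ITGB1, TAGLN2 and INSIG2 of the 9 stayed called without C3806a, and that array correlated best with an array of the other line (C3106d, r = 0.976).

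Skin cultures were set against each other in the same way. By an F test on arrays 1159 genes (8.2%) differed among M032, M088 and M106p1, of which 169 were called higher in ESCs, 239 lower and 751 in neither direction. Of these genes M106p1 stood apart from both others for 270 (59 higher and 211 lower), M032 for 257 and M088 for 162. The widest ranges came from genes not called in ESC minus skin. MMP3, a matrix metalloprotease, had means of 12.59 in M032, 6.14 in M088 and 5.81 in M106p1, with 6.61 and 6.0 in the ESC lines. DUT, which clears dUTP, had 5.07, 11.19 and 4.91 in the same order, with 7.35 and 6.42 in the ESC lines, and its 3 arrays in M088 lay between 11.11 and 11.25. GJA5, a gap-junction protein of arteries and heart, was high in M106p1 (10.74, against 4.80 in M032 and 6.56 in M088), as was PCDH10 (10.34, against 5.38 and 5.97). MEOX2, a homeobox factor of mesoderm, was high in M088 (8.80, against 3.39 in M032 and 4.41 in M106p1). TFAP2C, a factor of trophoblast and skin, was low in M088 (5.31, against 10.38 in M032 and 9.63 in M106p1), with 9.44 and 9.20 in the ESC lines. With M106p1f kept, 622 genes differed.

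Skin and teratoma fibroblasts were both set against ESCs in the study, and the difference between those comparisons is the contrast of teratoma with skin fibroblasts. By this contrast 135 genes were higher in teratoma fibroblasts (0.955%) and 110 lower (0.778%). MEST had a mean of 12.06 in teratoma fibroblasts, SOX11 8.59 and IGF2BP3 11.39, all above skin (by 5.77, 4.32 and 3.38, adjusted p of 0.000196, 0.000196 and 0.0205), so their gap to ESCs was wider in skin. NT5E had a mean of 9.09 in teratoma fibroblasts, ATP8B3, a lipid flippase, 8.58 and HOXC6 8.01, all below skin (by 1.99, 4.94 and 3.46, adjusted p of 0.0455, 0.0466 and 0.0287). TNFRSF11B had a mean of 11.44 in teratoma fibroblasts, above skin by 2.03 (adjusted p = 0.0397), and 4.19 in ESCs. Among cell cycle genes CCND1 and CCND3 were below skin by 1.46 and 1.63 (adjusted p of 0.0371 and 0.018), and LMNB1 above it by 1.82 (adjusted p = 0.0299). SOX2 had a mean of 7.76 in teratoma fibroblasts, with cultures from 4.78 to 10.90, and the difference of 3.70 from skin was not called (adjusted p = 0.0637). With C3806c, M106p1f and TB31c kept under their labels the counts were 39 and 26.

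Many genes are measured by more than 1 probe set, of which the brightest over all arrays was used. Of 1456 called genes with another, the next brightest moved the same way by at least the fold limit in 769 genes, the same way by less in 498, and not at all or the opposite way in 189. Of the called genes named in the text 126 have another probe set, and these counts were 81, 32 and 13. Beside KLK8, CLSPN, COL5A2, GBP2, HOXC6 and PMP22, the 13 were EPAS1 at 0, ATP8B3, whose other probe set differed by 0.35, GDF6 by 0.53, HOXB6 by 0.07, ID3 by 0.24, ITGA8 by 0.10 and MLANA by −0.08. LIN28B differed by 0.80 on its other probe set, LAMA1 by 0.32, MYCL by 0.28, SHOX2 by −0.86, IGFBP7 by −0.78, HDAC9 by −0.39 and SYNPO2 by −0.47. Others of the 32 were SLC2A1 at 0.21, NODAL at 0.21, PBX3 at 0.17, FABP4 at 0.17, SOX3 at 0.12, TAPBP at −0.18 and ATP10A at −0.08. EPCAM, POU5F1, DNMT3B, DPPA4, TGFBI and DKK1 have a single probe set, so no second measurement bears on them.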

How the data were processed

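RNA of 5 cell sources was measured on single-colour arrays. The authors deposited 1 log2 signal for each probe set and array, made with GCOS and RMA per the submitters' processing notes, which name no version. The arrays of a source, called biological triplicates in the labels, were averaged, and nothing says whether they came from separate cultures. The log2 means of 2 ESC lines and 3 skin cultures were compared with limma 3.58.1 in R 4.3.3 (3 residual degrees of freedom, two-sided, Benjamini-Hochberg over all genes). Differences between lines and among skin cultures (F test) were fitted on the 13 arrays, and teratoma minus skin on all 13 sources. Of these tests, that of ESC minus skin was checked on simulated data. Genes had 1 symbol in the platform's annotation (24956 of 52865 probe sets, 14132 genes), and chromosomes came from a RefSeq table for 13945. Arrays have no read depth, and the number of sources limits the precision. No filter on low values was used.

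The members and the 43 gene lists (955 measured genes, 29 in more than 1 list) were chosen with earlier results of these data known. Named genes are the 15 largest rises and falls, the given markers, up to 6 called members of each list with the largest difference and up to 3 called against its main direction, markers by level, up to 6 genes each way for the lines, 6 for the skin cultures and 3 for each of chromosomes 20, 16, 19 and X. The 15 largest rises and falls were taken among called genes whose source means do not overlap. Other named genes are said to be chosen after their values were seen, or are called list members of smaller difference. DPPA5, UTF1, GPI and DAZL, which were not called, were also chosen after their values were seen. Alternatives changed the arrays and sources used, the unit and variance of the fit, the probe set, the filter and the scaling. Array letters did not pair the samples: the correlation of deviations over the 10 same-letter pairs of ESC and skin arrays ran from −0.11 to 0.13. No sequences were used.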

Additional observations from a re-analysis of the deposited data

Results flagged for a closer look

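Within the 5 ESC arrays or the 8 skin arrays, 68 groups of values were examined for a sample far from the others, and 7 were found, where chance alone gives about 1 in 20. In ESC arrays the median signal of C3106d was 6.25, against 6.33 to 6.35 in the others. Array C3806a had 3′ to 5′ gaps of 3.89 for actin (others 0.26 to 0.76), 1.42 for GAPDH (0.49 to 0.60) and 1.70 for the elongation factor control (−0.11 to 0.06). SPP1 was low in C3806b, at 10.37 against 12.57 to 13.40. In skin arrays M106p1e had a GAPDH gap of 0.92 (0.60 to 0.74) and a NELL2 signal of 5.13 (4.51 to 4.79).

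The difference from skin itself differed between the ESC lines for 9 genes, by the limma test of C3106 against C3806 on arrays. Skin cancels in that test, so it is the comparison of the lines given above, whose count of called genes moved with every array left out. Signed as ESC minus skin, it lay above that of C3806 in C3106 by 2.26 for ITGB1, 1.35 for TAGLN2, 1.29 for LOC717595, 1.20 for PDAP1, 1.09 for INSIG2, 1.07 for KCTD8 and 1.06 for BRIP1. It lay below that of C3806 in C3106 for RAB25 (−1.37) and NODAL (−1.16). ITGB1 had means of 10.60 in C3106 and 8.34 in C3806, against 11.74 in skin, so C3806 lay farther from skin.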

How the results depend on the processing

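Over the alternatives that kept the brightest probe set, the counts of ESC minus skin stayed within 1.5 times of 1385 and 1355. They ran from 930 (without source C3806) to 1507 higher and from 983 (without C3806) to 1551 lower. Leaving out single arrays gave 1326 to 1418 higher and 1312 to 1391 lower. With the array letter as a replicate block they were 1375 and 1551; the letters do not pair the samples (same-letter correlations from −0.11 to 0.13, against −0.20 to 0.20 over 30 pairs of different letters). With the brightest other probe set, which exists for 6375 genes, they were 552 and 597. That probe set reversed ATP8B3 (0.35), CLSPN (0.13), COL5A2 (0.75), GBP2 (−0.76), GDF6 (0.53), HOXB6 (0.07), HOXC6 (0.20), ID3 (0.24), ITGA8 (0.10), KLK8 (0.91), MLANA (−0.08) and PMP22 (1.99) and brought EPAS1 to 0, and the probe set of highest interquartile range reversed COL5A2 (0.37), ID3 (0.24) and PMP22 (1.99); the cause was not tested. Without M088 DUT reversed to 1.89. Counting each named gene under each alternative, 7668 results kept their direction and side of the threshold, 220 lost the call, 42 gained it and 17 reversed (EPAS1 among them, at 0). The mitosis count of 8 was 20 with the block and 14 with quantile normalization, and the splicing count of 8 was 4 with C3806c and M106p1f kept. For C3106 against C3806, leaving out 1 array gave 1 to 220 genes higher and 2 to 104 lower (67 and 68 without C3806a). With M106p1f kept 622 genes differed among skin cultures, against 1159 without it, and leaving out skin arrays gave 1062 to 1205. With the 3 arrays kept, teratoma minus skin gave 39 higher and 26 lower, against 135 and 110. Signals near the bottom of the scale limit the size of the largest differences.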

Other observations

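Further genes, mostly outside the gene lists, are described here, and all were chosen after their values were seen. CYP26A1, which breaks retinoic acid down, lay at 8.82 to 11.26 in ESC arrays and 4.95 to 5.19 in skin (5.41, SE 0.22, limma adjusted p = 0.000176), and the binding protein CRABP1 rose by 3.13. ALDH1A3, which makes retinoic acid, fell by 5.07 (SE 1.18, adjusted p = 0.0257), with skin arrays from 8.26 to 12.49, and RARRES1, named for its response to retinoids, fell by 5.66. FREM2 and FREM1, which join FRAS1 in basement membranes of embryonic epithelia, rose by 3.87 and 2.39. PMAIP1, which encodes the death-promoting protein NOXA, lay at 11.24 to 12.43 in ESC arrays and 5.26 to 8.31 in skin (5.42, SE 0.84, adjusted p = 0.00705), while BAX, a death effector, had means of 10.24 in ESCs and 9.90 in skin and was not called (adjusted p = 0.26).

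CMAH, the enzyme that makes the sialic acid Neu5Gc and is inactive in humans, lay at 2.56 to 3.77 in ESC arrays and 9.16 to 10.26 in skin (−6.73, SE 0.32, adjusted p = 0.000271). The calcium-binding proteins S100A4 and S100A6 fell by 6.83 and 5.18, EPAS1, a hypoxia-inducible factor, by 5.44, and CPT1A, which admits fatty acids to mitochondria, by 5.76. On the brightest other probe set EPAS1 differed by 0, CPT1A by −0.83 and CMAH by −4.36, and a dimmer one of CMAH by 1.37. SLC45A2, a melanocyte transporter by annotation, had means of 12.92 in ESCs and 13.08 in skin on its brightest probe set, while TYR had 6.99 in ESCs and 6.89 in skin.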
